A study of Mus musculus with 4 samples.

Results

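The genes described here are 31 that make, sense, move, store or export cholesterol, chosen by name and matched to the symbols of an expression table of 22186 genes, in which all 31 were listed. They were measured by RNA sequencing in MC38 cells, a mouse colon cancer cell line, that stably carried a tetracycline-inducible construct for the chemokine CXCL14 (genotype TetOn-CXCL14). All 4 cultures carried the construct. The control group was 2 cultures given PBS, the solvent, and the other group was 2 cultures given doxycycline, the drug that switches the construct on, at 1 µg/mL, with harvest after 72 h in both. The series text calls the cultures biological replicates of a stably transfected, screened line, and speaks of collection before and after induction where the treatment protocol gives the solvent control and equal culture time. Because no culture without the construct received the drug, an effect of doxycycline itself and an effect of CXCL14 cannot be told apart in any value below.

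Levels are in TPM, a length-scaled share of the RNA in a library, and are given for control replicates 1 and 2 and then doxycycline replicates 1 and 2. Fold changes are on a log2(TPM + 1) scale, doxycycline minus control, from a limma fit of every gene averaging 1 TPM or more, and a gene was called at a Benjamini-Hochberg adjusted p under 0.05. Read counts were not part of the tables, so sequencing depth is unknown. An exact permutation of 2 against 2 libraries could reach no p below 0.33, so the calls rest on the variance that limma pools over genes, and they measure the spread between these cultures only. Cxcl14 stood at 27.3 and 29.2 TPM in control cultures and 385 and 391 TPM with doxycycline, which matches the labels. Of 11 markers of intestinal epithelium, 0 reached a mean of 1 TPM, and Cdh1, Krt19, Cdx1 and Cdx2 were listed at 0 in all 4 libraries. Of 9 fibroblast markers, 5 reached that mean, led by Dcn, and 1, Thy1, was at 0 throughout. Their summed level was 4053 and 4205 TPM in control cultures and 909 and 823 TPM with doxycycline. Of 9 macrophage markers, 2 reached a mean of 1 TPM, with sums of 12.2 and 10.4 TPM in control cultures and 7.54 and 8.89 TPM with doxycycline, and C1qa, C1qc and Laptm5 were at 0. Of 5 endothelial markers, 0 reached that mean and Kdr was at 0, with sums between 0.119 and 0.627 TPM. The part of these marker levels in the results below was not tested. In bulk RNA, fewer cells of a kind and less RNA per cell cannot be told apart.

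Cells build cholesterol from acetyl-CoA through mevalonate, isoprenoid diphosphates, squalene and a series of sterols. The pathway is set by SREBP2, encoded by Srebf2, a transcription factor that its escort SCAP carries out of the endoplasmic reticulum when sterols are low and that the INSIG proteins hold back when sterols are high. Cholesterol taken up in lipoproteins leaves the lysosome through NPC2 and NPC1, surplus is esterified by SOAT1 for storage, and the liver X receptors (LXR) switch on exporters such as ABCA1 when oxysterols accumulate.

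Doxycycline was followed by changes in both directions among the cholesterol genes. Sqle, Msmo1, Soat1 and Fdft1 rose by 1.62-fold to 2.08-fold, and Abca1 fell 17.6-fold. Mylip, Acat2, Npc2, Insig2 and Npc1 fell by 1.63-fold to 2.16-fold. Of the 31 genes, 29 passed the filter on low levels and were tested, and 9 of these rose and 8 fell. Nr1h3 and Abcg1 were below the filter. Across all 11359 genes tested, 64.4% were called, 29% as higher and 35.4% as lower, so the 17 of 29 called here are close to the share among all genes. The median log2 fold change of the 29 was 0.02, against -0.04 over all genes tested. It was -0.023 without control replicate 1, -0.018 without doxycycline replicate 1 and 0.059 without doxycycline replicate 2, so its sign turned on single libraries. The median size regardless of direction was 0.25 against 0.33. Changes of 0.5 or more in size on the log2 scale were seen in 11 of the 29 and in 34.6% of all genes. Groups did not overlap for 22 of the 29, against 82.7% of all genes tested. The SD of the log2 difference over the 29 genes was 0.12 between the controls and 0.09 between the doxycycline cultures, and 0.78 to 0.83 between any control and any doxycycline culture.

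**Figure D1:**
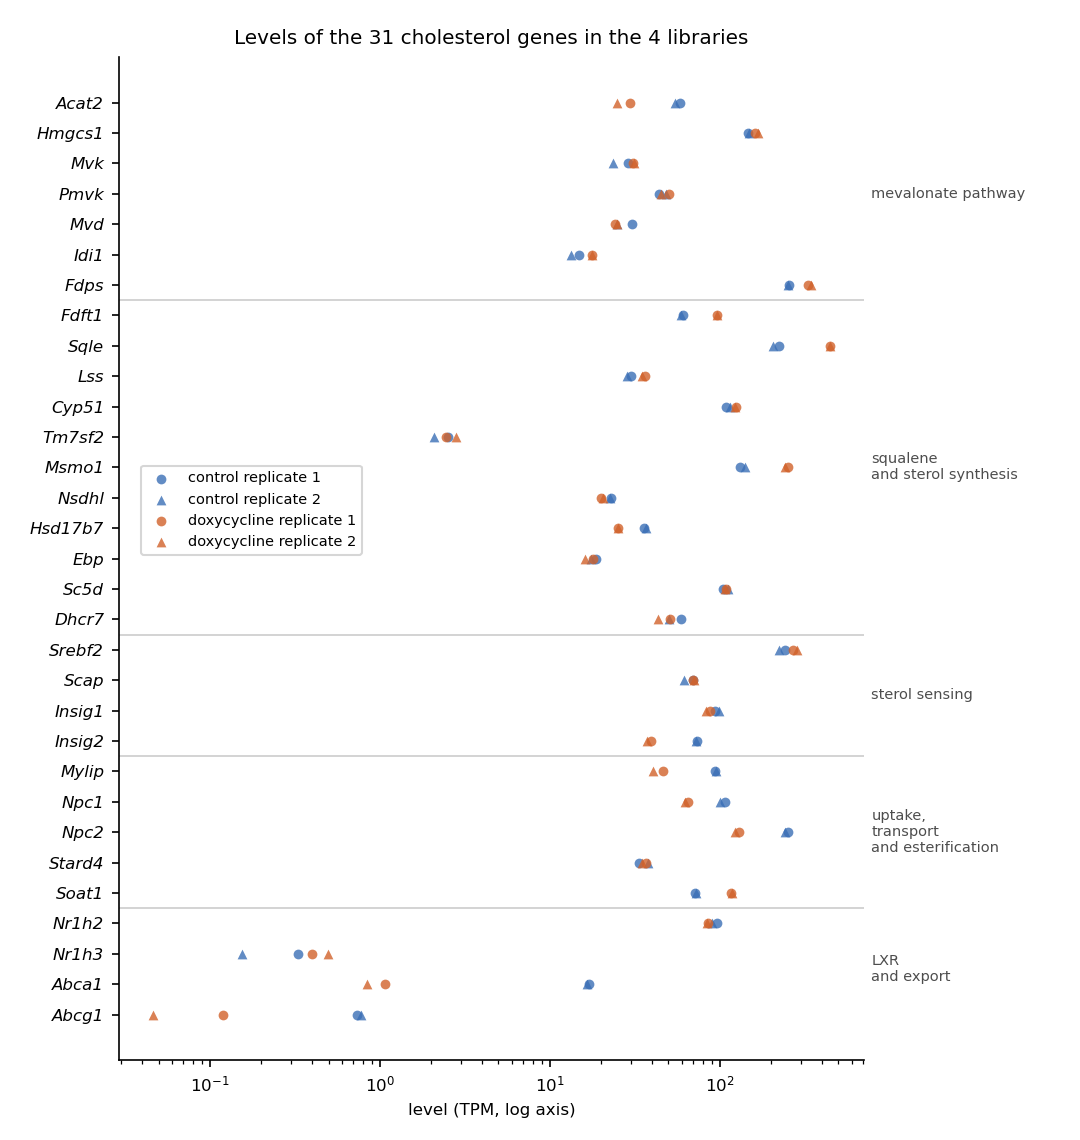
Level of each of the 31 cholesterol genes in each library, in TPM on a log axis, with genes grouped by role from top to bottom. Blue marks are control and orange marks doxycycline cultures, with circles for replicate 1 and triangles for replicate 2. The widest separation is that of Abca1, at 17.0 and 16.6 TPM against 1.07 and 0.844 TPM, while most synthesis genes lie close together in all 4 libraries.

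The first stage of synthesis, from acetyl-CoA to farnesyl diphosphate, was covered by 7 genes, of which 3 rose and 1 fell. That is 57.1% called (42.9% higher, 14.3% lower), against 64.4% of all genes tested (29% higher, 35.4% lower). Acat2, the cytosolic thiolase that joins acetyl-CoA units, stood at 58.9 and 55.0 TPM in control cultures and 29.6 and 24.9 TPM with doxycycline. Both doxycycline cultures lay well under both controls, a fall of 2.09-fold (log2 fold change -1.04, SE 0.09, limma adjusted p = 1.0e-05). Fdps, which makes farnesyl diphosphate, the branch point to sterols and to prenylated proteins, stood at 255 and 253 TPM in control cultures and 331 and 344 TPM with doxycycline. It was the most abundant of the 7 in every library and rose 1.33-fold (log2 fold change 0.41, SE 0.06, limma adjusted p = 2.3e-04). Idi1, the isopentenyl diphosphate isomerase, was lower in level and stood at 14.8 and 13.4 TPM in control cultures and 17.6 TPM in both doxycycline cultures (log2 fold change 0.31, SE 0.09, limma adjusted p = 0.014). Hmgcs1, a synthase that acts before mevalonate is formed, stood at 147 and 148 TPM in control cultures and 162 and 167 TPM with doxycycline. The rise of Hmgcs1 was small (log2 fold change 0.16, SE 0.06, limma adjusted p = 0.035) although its groups did not overlap. The call of Hmgcs1 was lost when any single library was left out (adjusted p between 0.060 and 0.22), and that of Idi1 without control replicate 2 (0.073) or without either doxycycline culture (0.051 each), so that 1 of the 7 was called higher in each of the last 3 settings.

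Mvk, Pmvk and Mvd, which phosphorylate mevalonate and then decarboxylate it, were not called. Mvk stood at 29.1 and 23.5 TPM in control cultures and 30.97 and 31.4 TPM with doxycycline (log2 fold change 0.24, 95% interval 0.02 to 0.47, limma adjusted p = 0.058). The control cultures differed from each other for Mvk and also for Mvd, which stood at 30.7 and 24.9 TPM in control cultures and 24.3 and 24.8 TPM with doxycycline (log2 fold change -0.17, interval -0.40 to 0.06, limma adjusted p = 0.17). Mvk passed with the FPKM table, median-of-ratios or quantile scaling, robust variance or a replicate block (limma adjusted p from 0.019 to 0.049). It did not pass with either other pseudocount, no filter, a 5 TPM filter or no variance trend. The log2 fold change of Mvk was 0.39 without control replicate 1 and 0.10 without control replicate 2. That of Mvd was -0.02 without control replicate 1 and -0.31 without control replicate 2. Pmvk ranged from 44.1 to 50.5 TPM with overlapping groups (log2 fold change 0.05, interval -0.13 to 0.23).

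The second stage, from squalene to cholesterol, was covered by 11 genes, of which 4 rose and 1 fell. That is 45.5% called (36.4% higher, 9.09% lower), against 64.4% of all genes tested (29% higher, 35.4% lower). Squalene epoxidase, Sqle, is the oxygen-dependent and often rate-controlling enzyme of this stage. Its transcript stood at 224 and 205 TPM in control cultures and 447 and 444 TPM with doxycycline, so both doxycycline cultures lay far above both controls. This 2.08-fold rise was the largest among the 29 genes (log2 fold change 1.05, SE 0.06, limma adjusted p = 1.0e-06). Msmo1, the sterol methyl oxidase that starts removal of the methyl groups at carbon C-4, stood at 131 and 142 TPM in control cultures and 253 and 244 TPM with doxycycline. The groups lay far apart for a 1.82-fold rise (log2 fold change 0.86, SE 0.06, limma adjusted p = 3.6e-06). Fdft1, squalene synthase, stood at 60.5 and 59.3 TPM in control cultures and 97.04 and 96.6 TPM with doxycycline, with almost no spread within a group (log2 fold change 0.68, SE 0.06, limma adjusted p = 1.1e-05). Lss, which closes the ring system to form lanosterol, changed less, from 30.2 and 28.7 TPM to 36.2 and 34.8 TPM (log2 fold change 0.26 with an SE of 0.07, limma adjusted p = 0.011). Its call was lost without control replicate 2 (adjusted p = 0.054) or doxycycline replicate 1 (0.077). The ratio of Sqle to Lss within a library was 7.41 and 7.15 in the controls and 12.3 and 12.8 with doxycycline, higher in both doxycycline cultures.

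Msmo1 works in a complex with Nsdhl, a sterol dehydrogenase, and Hsd17b7, the ketosteroid reductase that completes each round of demethylation, and neither partner was called higher. Hsd17b7 fell, from 36.1 and 36.9 TPM to 25.1 and 25.3 TPM (log2 fold change -0.51 with an SE of 0.07, limma adjusted p = 2.0e-04). Nsdhl stood at 22.8 TPM in both controls and 20.0 and 20.7 TPM with doxycycline, with groups apart but the change not called (log2 fold change -0.16, interval -0.33 to 0.02, limma adjusted p = 0.11). The other 5 genes of this stage were not called. Cyp51, the lanosterol demethylase, stood at 109.7 and 115 TPM in control cultures and 126 and 123 TPM with doxycycline. Its log2 fold change was 0.15 (interval 0.01 to 0.28, limma adjusted p = 0.054), and 0.18 without control replicate 2. Cyp51 passed with the FPKM table (limma adjusted p = 0.040) or median-of-ratios scaling (0.010), and in no other setting that kept all 4 libraries. Dhcr7, the reductase that yields cholesterol itself, stood at 59.4 and 50.7 TPM in control cultures and 50.9 and 43.6 TPM with doxycycline, with overlapping groups (log2 fold change -0.22, limma adjusted p = 0.079). Dhcr7 passed as lower without control replicate 2 (adjusted p = 0.039) or doxycycline replicate 1 (0.015). The desaturase Sc5d ranged from 105 to 112 TPM and the isomerase Ebp from 16.2 to 18.6 TPM, both with overlapping groups (intervals -0.14 to 0.14 and -0.29 to 0.12). The reductase Tm7sf2 was the lowest synthesis gene at 2.09 to 2.82 TPM (interval -0.20 to 0.47).

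Summed over the 18 synthesis enzymes, the level was 1379 and 1358 TPM in control cultures and 1832 and 1813 TPM with doxycycline, a ratio of group means of 1.33. The rise was uneven over the pathway. Sqle, Fdps, Msmo1 and Fdft1, grouped after their values were seen, went together from 670.0 and 660.0 TPM to 1128 TPM in each doxycycline culture. The other 14 enzymes summed to 709 and 698 TPM in control cultures and 703 and 685 TPM with doxycycline, so their total overlapped between the groups.

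**Figure D2:**
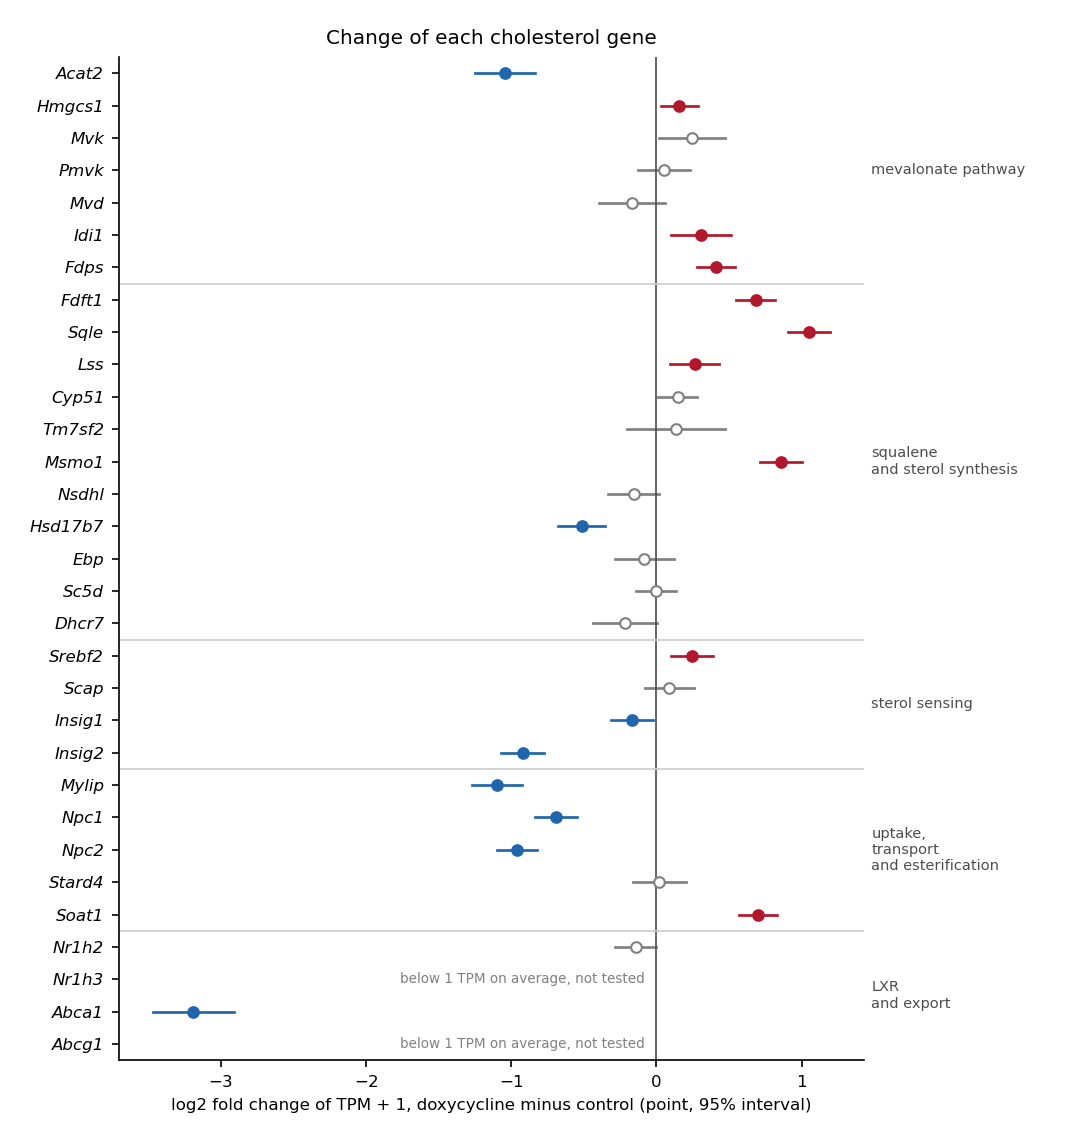
Log2 fold change of TPM + 1, doxycycline minus control, of each cholesterol gene (point) with its 95% interval from limma (line), in the order of the pathway. Filled red and blue points were called higher and lower at an adjusted p under 0.05, and open grey points were not called. Sqle has the highest change (1.05) and Abca1 the lowest (-3.19), and synthesis genes lie on both sides of zero.

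Among the sterol-sensing genes, Srebf2 rose and both INSIG genes fell. Srebf2 stood at 242 and 225 TPM in control cultures and 269.8 and 284 TPM with doxycycline (log2 fold change 0.25, SE 0.06, limma adjusted p = 0.0079), a call lost without doxycycline replicate 2 (adjusted p = 0.064). Insig2, whose protein retains the SCAP and SREBP complex in the endoplasmic reticulum, stood at 73.7 and 73.0 TPM in control cultures and 39.3 and 37.2 TPM with doxycycline. It fell 1.92-fold with tight replicates (log2 fold change -0.92, SE 0.07, limma adjusted p = 3.0e-06). Insig1, its homologue and a known SREBP target, moved little by comparison, at 94.5 and 98.7 TPM in control cultures and 88.0 and 83.7 TPM with doxycycline (log2 fold change -0.17, SE 0.06, limma adjusted p = 0.040). The call did not hold in 7 of the 14 alternatives, which included leaving out control replicate 2 (adjusted p = 0.13), doxycycline replicate 1 (0.073) or doxycycline replicate 2 (0.25). The ratio of Insig1 to Insig2 within a library was 1.28 and 1.35 in the controls and 2.24 and 2.25 with doxycycline. Scap stood between 61.9 and 71.1 TPM with overlapping groups (log2 fold change 0.09, interval -0.08 to 0.26).

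Genes of lipoprotein receptor turnover and lysosomal cholesterol release fell, and the esterifying enzyme rose. Mylip, an E3 ubiquitin ligase that marks lipoprotein receptors for degradation and is a known LXR target, stood at 93.9 and 95.3 TPM in control cultures and 46.7 and 40.8 TPM with doxycycline (log2 fold change -1.10, SE 0.08, limma adjusted p = 2.4e-06). Npc2, the soluble lysosomal cholesterol-binding protein, stood at 252 and 241 TPM in control cultures and 129.8 and 123 TPM with doxycycline (log2 fold change -0.96, SE 0.06, limma adjusted p = 1.4e-06). Npc1, the membrane protein that receives cholesterol from NPC2, stood at 107 and 101 TPM in control cultures and 65.1 and 62.7 TPM with doxycycline (log2 fold change -0.69, SE 0.06, limma adjusted p = 1.5e-05). In these 3 genes every doxycycline culture lay below every control by far more than the replicates differed. The ratio of Npc2 to Npc1 was 2.35 and 2.40 in the controls and 1.99 and 1.97 with doxycycline, lower in both doxycycline cultures, a difference that was not tested. Soat1, which esterifies cholesterol in the endoplasmic reticulum, stood at 71.8 and 72.4 TPM in control cultures and 117 and 118 TPM with doxycycline (log2 fold change 0.70, SE 0.06, limma adjusted p = 7.8e-06). Stard4, a soluble sterol carrier, ranged from 33.4 to 37.8 TPM with overlapping groups (log2 fold change 0.02, interval -0.16 to 0.21).

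The exporter Abca1, which loads cholesterol onto apolipoprotein acceptors, changed more than any other of the 29 genes. It stood at 17.0 and 16.6 TPM in control cultures and 1.07 and 0.844 TPM with doxycycline. Both doxycycline cultures were near 1 TPM, and the ratio of means was 17.6 (log2 fold change -3.19, SE 0.12, limma adjusted p = 9.0e-08). Of all genes tested, 0.431% changed by as much in either direction, and Abca1 ranked 37 from the lowest log2 fold change of 11359. Because 1 is added before the logarithm, the fold change understates the fall at this level, and with 0.1 added it was -4.01. Abcg1, a second exporter, was below the tested range, at 0.735 and 0.777 TPM in control cultures and 0.120 and 0.0461 TPM with doxycycline. Of the liver X receptors, Nr1h2 (LXR beta) stood at 96.6 and 90.8 TPM in control cultures and 85.6 and 83.9 TPM with doxycycline and was not called (log2 fold change -0.14, limma adjusted p = 0.072). Without control replicate 2, Nr1h2 passed as lower (adjusted p = 0.047). Nr1h3 (LXR alpha) stood at 0.332 and 0.155 TPM in control cultures and 0.398 and 0.497 TPM with doxycycline, under the tested range in every library.

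**Figure D3:**
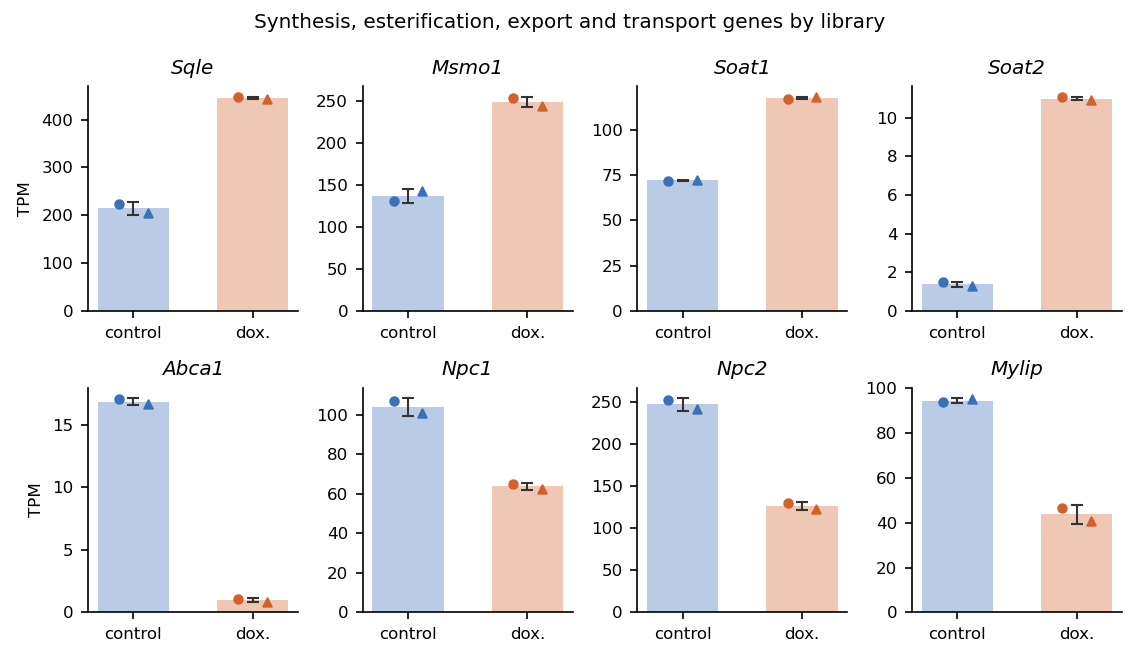
Levels in TPM of 8 genes of cholesterol synthesis, esterification, export and transport, on linear axes from zero. Bars are group means of 2 cultures, error bars the SD, and points the cultures (circle replicate 1, triangle replicate 2). Sqle, Msmo1, Soat1 and Soat2 are higher with doxycycline in both cultures, and Abca1, Npc1, Npc2 and Mylip are lower in both.

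**Figure D4:**
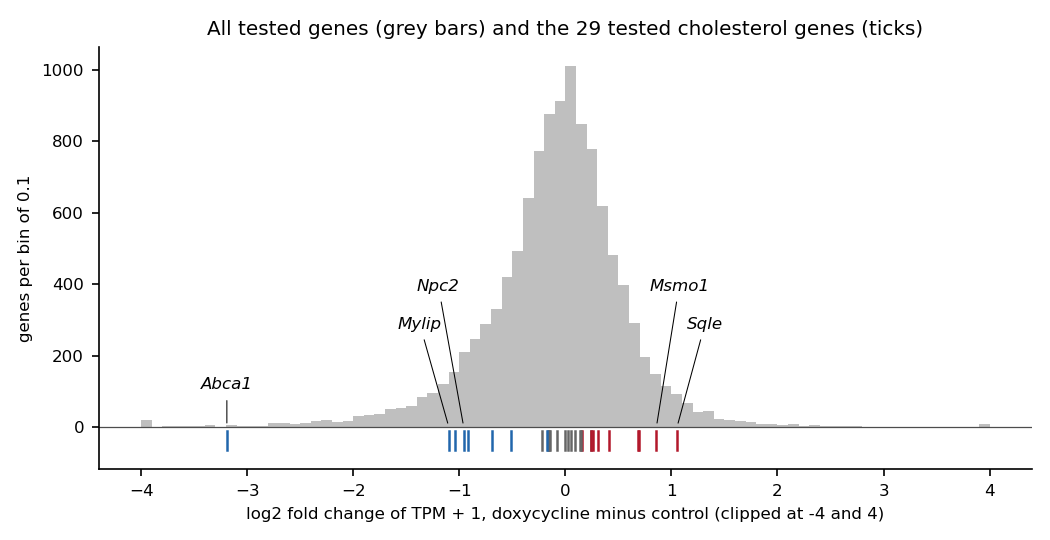
Histogram of the log2 fold change of TPM + 1 over all 11359 genes tested (grey bars, genes per bin of 0.1, values beyond the axis limits placed in the end bins), with a tick under the axis for each of the 29 tested cholesterol genes (red called higher, blue called lower, grey not called). Most ticks lie within the bulk of the histogram, and Abca1 is the lowest of them, at -3.19.

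Promoter sequence is shown for 4 genes of different role and direction: Hmgcs1 as the classic sterol-responsive gene of the pathway, Msmo1 as a synthesis gene that rose, and Abca1 and Mylip as LXR-linked genes that fell. Each line is the 300-base window from 250 bases before to 50 bases after the annotated start, 5′ to 3′ on the strand of the gene, from RefSeq on GRCm38.p6, an earlier build than the mm39 named in the submitters' processing notes. The windows are chr13:119690101-119690400 on the plus strand for Hmgcs1, chr8:64733529-64733828 on the minus strand for Msmo1, chr4:53159846-53160145 on the minus strand for Abca1 and chr13:45389492-45389791 on the plus strand for Mylip. Capitals mark matches on either strand to TCACNCCAC (the core of a sterol regulatory element), CCAAT (the box bound by NF-Y), GGGCGG (the SP1 box), CACGTG (an E-box) and AGGTCA (the core site of nuclear receptors).
Hmgcs1: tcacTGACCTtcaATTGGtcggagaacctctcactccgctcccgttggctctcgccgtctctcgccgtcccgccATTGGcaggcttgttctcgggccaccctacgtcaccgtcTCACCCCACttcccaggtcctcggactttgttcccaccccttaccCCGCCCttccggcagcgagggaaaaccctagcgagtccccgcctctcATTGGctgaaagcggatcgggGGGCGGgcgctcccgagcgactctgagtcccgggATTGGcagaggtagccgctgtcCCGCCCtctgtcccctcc
Msmo1: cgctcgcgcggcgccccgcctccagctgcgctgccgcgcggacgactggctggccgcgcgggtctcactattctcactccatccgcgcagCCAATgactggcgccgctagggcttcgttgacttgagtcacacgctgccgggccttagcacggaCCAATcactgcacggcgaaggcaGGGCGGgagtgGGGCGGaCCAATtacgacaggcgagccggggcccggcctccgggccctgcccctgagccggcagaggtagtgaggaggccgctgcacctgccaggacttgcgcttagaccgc
Abca1: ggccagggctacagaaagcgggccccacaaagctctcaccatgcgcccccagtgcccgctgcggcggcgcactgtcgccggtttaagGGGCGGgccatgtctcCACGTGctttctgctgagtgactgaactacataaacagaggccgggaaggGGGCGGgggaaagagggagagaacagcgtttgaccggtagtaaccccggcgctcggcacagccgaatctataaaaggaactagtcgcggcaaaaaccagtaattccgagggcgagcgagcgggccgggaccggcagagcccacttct
Mylip: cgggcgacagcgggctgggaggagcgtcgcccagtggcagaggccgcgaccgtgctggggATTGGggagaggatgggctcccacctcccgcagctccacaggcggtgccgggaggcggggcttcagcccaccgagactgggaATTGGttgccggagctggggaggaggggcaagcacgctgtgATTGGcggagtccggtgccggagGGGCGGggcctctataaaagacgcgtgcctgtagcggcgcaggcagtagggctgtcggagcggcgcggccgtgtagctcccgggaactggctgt

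The Hmgcs1 window held 1 match to the sterol regulatory core, TCACCCCAC, starting 137 bases before the start, among 4 NF-Y boxes. The Msmo1 and Mylip windows each held 3 NF-Y boxes. Msmo1 and Mylip were shown as genes of opposite direction, and any link of the boxes to direction was not tested. The Abca1 window held 0 NF-Y boxes, 2 SP1 boxes and an E-box starting 147 bases before the start. Only exact spellings were searched, so a variant or paired nuclear receptor site in any window is left unmarked. RefSeq windows were matched by symbol for 25 of the 31 genes, as 32 windows. The 6 without a window were Sqle, Fdps, Fdft1, Npc1, Stard4 and Abcg1. The sterol regulatory core as spelled was in 1 of the 32 windows and in 1.24% of all 32851 windows in the table. NF-Y boxes were in 20 of 32, against 37.4% of all windows, and SP1 boxes in 25 of 32, against 35.7%. E-boxes were in 7 of 32 against 7.15%, and the nuclear receptor core site in 5 of 32 against 16.3%. Among genes with a window, the NF-Y box was present in 6 of 6 genes that rose, 5 of 7 that fell and 9 of 11 that were not called. A gene was counted here if any of its windows held the box, whereas the share of 37.4% is per window. The genes that rose are counted here without Sqle, Fdps and Fdft1. These matches describe letters in a short window and say nothing on whether a factor binds there.

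Other genes of sterol metabolism, in 5 lists of 63 genes chosen by function, changed in both directions too: of the 55 tested, 22 rose and 17 fell, with a median log2 fold change of 0.06. These are 40.0% and 30.9% of the genes tested, against 29% and 35.4% of all genes, and the same background applies to each list that follows. Electron donors of the sterol oxidations moved in both directions. Cyb5r3 and Cyb5a, the reductase and cytochrome that pass electrons to the desaturase and the methyl oxidase, went from 659 and 634 TPM to 275 and 253 TPM and from 64.7 and 68.4 TPM to 32.0 and 29.5 TPM (log2 fold change -1.29 and -1.09, limma adjusted p = 3.6e-07 and 2.0e-06). Por, which reduces CYP51 and squalene epoxidase, went from 177 and 174 TPM to 96.8 and 87.4 TPM (log2 fold change -0.93, limma adjusted p = 3.1e-06). Cyb5b, another cytochrome of this kind that was picked out after its value was seen, rose from 213 and 215 TPM to 274 and 275 TPM (log2 fold change 0.36, limma adjusted p = 4.4e-04), and Pgrmc1, a heme protein that binds cytochrome P450 enzymes and was likewise looked up later, was not called (0.09, limma adjusted p = 0.27). Of this list of synthesis and electron transfer genes, 2 of 8 tested rose and 4 fell. Erg28, a scaffold of the sterol demethylation complex picked out after its value was seen, rose from 42.7 and 38.3 TPM to 72.8 and 75.0 TPM (log2 fold change 0.85, limma adjusted p = 9.3e-06).

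The isoprenoid branches that leave the mevalonate pathway held 7 of 15 genes that rose and 1 that fell, and the rises numbered 4 without doxycycline replicate 2. Pdss1, which builds the tail of coenzyme Q, rose from 26.1 and 26.5 TPM to 43.4 and 42.2 TPM (log2 fold change 0.68, limma adjusted p = 3.1e-05). Icmt, which methylates prenylated proteins, fell from 73.4 and 70.6 TPM to 50.8 and 49.6 TPM (log2 fold change -0.51, limma adjusted p = 9.7e-05). In the list of SREBP processing and sterol-regulated degradation, 5 of 11 rose and 2 fell. With either doxycycline culture left out, 2 were called higher, and without control replicate 1, 3 were. In each of these settings 1 was called lower. Erlin1, a sterol-binding scaffold of the endoplasmic reticulum, rose from 50.7 and 45.4 TPM to 199 and 216 TPM (log2 fold change 2.09 with an SE of 0.07, limma adjusted p = 6.1e-08), whereas its partner Erlin2, looked up after the value of Erlin1 was seen, ranged from 64.8 to 69.4 TPM and was not called. Rnf145, an LXR-induced ubiquitin ligase that acts on SCAP, fell from 179 and 191 TPM to 57.5 and 54.7 TPM (log2 fold change -1.70 with an SE of 0.06, limma adjusted p = 8.3e-08). The third largest change in this list, Faf2, was a rise (log2 fold change 0.29, limma adjusted p = 0.0017).

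Lipoprotein uptake and sterol transport genes held the widest changes, with 7 of 17 tested rising and 8 falling. Stard5, a soluble sterol and bile acid carrier, rose from 19.7 and 19.5 TPM to 112 and 119.5 TPM (log2 fold change 2.50 with an SE of 0.07, limma adjusted p = 1.3e-08). Soat2, the other cholesterol acyltransferase, rose from 1.48 and 1.29 TPM to 11.1 and 10.9 TPM (log2 fold change 2.33 with an SE of 0.12, limma adjusted p = 4.8e-07). Gramd1b, which carries cholesterol from the plasma membrane to the endoplasmic reticulum, rose from 13.1 and 12.1 TPM to 58.5 and 61.4 TPM (log2 fold change 2.17 with an SE of 0.08, limma adjusted p = 6.6e-08). Soat1 and Soat2 thus rose together, and Soat1 remained 10.6 and 10.8 times as abundant as Soat2 with doxycycline, against 48.5 and 56.1 times in the controls. Of the further genes of this list, all picked out after their values were seen, Osbpl2, an oxysterol-binding protein homologue, rose from 41.0 and 42.8 TPM to 158 and 180.0 TPM (log2 fold change 1.98, limma adjusted p = 8.3e-08). The lipoprotein receptor Vldlr rose from 20.3 and 19.8 TPM to 57.7 and 53.9 TPM (log2 fold change 1.43, limma adjusted p = 4.1e-07). The other receptors listed fell: Lrp1 went from 164 and 150.4 TPM to 78.0 and 66.9 TPM (log2 fold change -1.11, limma adjusted p = 3.8e-06), and Sort1, Scarb1 and Lrp8 had log2 fold changes of -0.86, -0.58 and -0.48. Tmem97, a sterol-regulated partner of NPC1, rose from 74.1 and 65.4 TPM to 183 and 193 TPM (log2 fold change 1.42, limma adjusted p = 4.2e-07). Lipa, the lysosomal lipase that frees cholesterol from lipoprotein esters, fell from 69.8 and 71.1 TPM to 35.9 and 31.1 TPM (log2 fold change -1.05, limma adjusted p = 4.3e-06). Lipa, Npc1 and Npc2, which act in sequence in the lysosome, were thus all lower with doxycycline. Of the LXR partners, targets and oxysterol enzymes, 4 of 10 reached the tested range, 1 rose and 2 fell. With no filter on low levels, 2 rose and 3 fell. Both counts also changed in some settings that left out a single library. Arl4c, a small GTPase and LXR target, fell from 46.2 and 48.8 TPM to 21.8 and 22.7 TPM (log2 fold change -1.06, limma adjusted p = 2.5e-06), as did Rxra, an LXR partner, from 62.5 and 60.8 TPM to 34.8 and 32.8 TPM (-0.85, limma adjusted p = 6.2e-06). Rxrb rose from 54.2 and 51.6 TPM to 67.0 and 74.5 TPM (log2 fold change 0.41, limma adjusted p = 9.4e-04). Not every LXR target in this list fell. Lpcat3, picked out after its value was seen, went from 97.4 and 87.4 TPM to 103 and 101 TPM and was not called (log2 fold change 0.15, limma adjusted p = 0.090). Abcg4, likewise looked up later, was below the tested range, at 0.451 and 0.509 TPM in control cultures and 0.771 and 1.02 TPM with doxycycline. Cyp39a1, an oxysterol enzyme also looked up later, averaged below the tested range. It stood at 1.77 and 1.64 TPM in control cultures and 0.136 and 0.157 TPM with doxycycline.

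**Figure D5:**
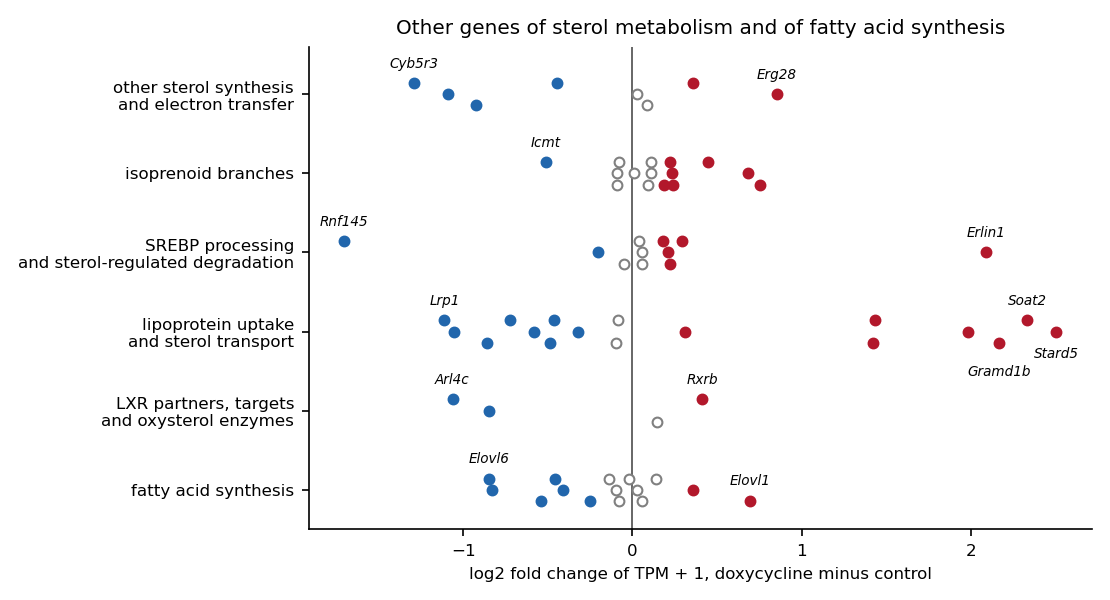
Log2 fold change of TPM + 1, doxycycline minus control, of the tested genes in 5 lists of other sterol metabolism genes and in a list of fatty acid synthesis genes. Each point is a gene, red called higher, blue called lower and open grey not called, and small vertical offsets only separate points. Stard5, Soat2, Gramd1b and Erlin1 lie furthest to the right, above 2, and Rnf145 furthest to the left, at -1.70.

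Fatty acid synthesis, a neighbouring branch of lipid metabolism under the related factor SREBP1, gave 2 of 15 genes that rose and 6 that fell, beside 7 of 18 and 2 of 18 for the cholesterol synthesis enzymes. Whether these counts differ was not tested. The median log2 fold change was -0.09 for fatty acid synthesis and 0.14 for the cholesterol synthesis enzymes. Elovl6 and Fads2, an elongase and a desaturase, fell (log2 fold change -0.85 and -0.83, limma adjusted p = 1.1e-05 and 3.0e-06), and Elovl1, an elongase of very long chains, rose (0.70, limma adjusted p = 1.5e-04). Srebf1, which encodes SREBP1 and was picked out after its value was seen, went from 192 and 166 TPM to 158 and 152 TPM (log2 fold change -0.20, limma adjusted p = 0.042). This call was lost without control replicate 1 (adjusted p = 0.23), doxycycline replicate 1 (0.052) or doxycycline replicate 2 (0.15). Within a library, the ratio of Srebf2 to Srebf1 was 1.26 and 1.35 in the controls and 1.70 and 1.87 with doxycycline.

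Several of these genes share sequence with others, and whether the counting used strand is not known from the sources used here. In the GENCODE M21 annotation, Fdft1 shares 774 exon bases with Ctsb on the opposite strand, and Ctsb fell from 848 and 821 TPM to 523 and 476 TPM while Fdft1 rose. Npc1 shares 511 exon bases with Rmc1 on the opposite strand, and Rmc1 fell from 96.0 and 91.9 TPM to 62.0 and 58.4 TPM, as Npc1 also fell. If counting did not use strand, reads from the overlap cannot be assigned to either gene. Whether such reads entered the values of Npc1 was not tested. Acat2 matched its paralogue Acat3 at 97.7% identity over 1477 bases, and Acat3 was listed at 1.42 and 2.05 TPM in control cultures and 0.906 and 0.890 TPM with doxycycline. Acat2 also matched Tcp1 over 445 bases, and Tcp1 stood between 415 and 455 TPM with no call (log2 fold change 0.11, limma adjusted p = 0.12). Fdps, Fdft1, Idi1 and Insig1 have near-identical processed pseudogenes in that annotation, and Fdps also shares exon sequence with the overlapping gene model Gm43738, so their single values are uncertain to that extent. Tm7sf2 shares 532 exon bases with Vps51 on the same strand. Vps51 stood between 32.6 and 37.1 TPM, against 2.09 to 2.82 TPM for Tm7sf2. Cyp51, Hmgcs1, Lss and Scap share 166, 557, 381 and 985 exon bases with genes on the opposite strand. The part of these overlaps in the values was not tested. Sqle, Msmo1, Soat1, Npc2, Insig2, Mylip and Abca1 had no match to another gene at 97% identity over 100 bases or more.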

How the data were processed

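Libraries of mRNA were sequenced from 4 MC38 cultures, per the labels' protocols, and their titles gave 2 groups of 2. Per the file headers, the authors deposited gene tables in TPM and FPKM, and within a library TPM was a constant multiple (3.08 to 3.14) of FPKM. Per the submitters' processing notes the build was mm39. No aligner, counting tool or annotation is given in the sources used here. No whole-read steps could be found among low values, so no depth or counting interval is given. No column of samples was left unused.

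Tests used log2(TPM + 1) and limma 3.58.1 in R 4.3.3 (lmFit, then eBayes with a mean-variance trend, prior degrees of freedom 6.98, residual 2) with no covariate, on genes averaging 1 TPM or more. Benjamini-Hochberg adjustment ran over all 11359 of them. The fit was tested on simulated data. Sums, ratios, motif matches and figures were made in Python 3.11.15 with pandas 2.3.3 and matplotlib 3.10.9. Transcripts of GENCODE M21, from an earlier build, were searched with blastn 2.17.0 for near-identical copies, and gave names and shared lengths only. The 31 genes and all lists were chosen with earlier results of these data known. The rule for names took the 31, Cxcl14, and from each other list up to 3 called genes of largest change, and further genes are marked as picked later. The alternatives were pseudocounts of 0.1 and 0.5, no filter, a 5 TPM filter, the FPKM table, median-of-ratios and quantile scaling, eBayes without trend or robust, a replicate block, and each library left out. Some genes of this pathway are not reported here.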

Additional observations from a re-analysis of the deposited data

How the results depend on the processing

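Over the 14 alternatives, Acat2, Fdps, Fdft1, Sqle, Msmo1, Hsd17b7, Insig2, Mylip, Npc1, Npc2, Soat1 and Abca1 were called in the same direction each time. No tested cholesterol gene reversed a call, and of all comparisons of a gene with its reported value, 369 kept their side of the threshold, 16 newly passed it and 19 no longer did. The number of cholesterol genes called higher ranged from 6 to 11 and lower from 7 to 10. Their median log2 fold change of 0.021 moved to 0.088 with median-of-ratios scaling, to 0.077 with quantile normalization, and to between -0.023 and 0.059 when 1 library was left out, so its sign is not settled. The cause was not tested. The ratio of summed synthesis TPM, 1.33, became 1.40 with median-of-ratios scaling, which rescales whole libraries. With a replicate block, 10 cholesterol genes were called higher and 9 lower, and Mvk (adjusted p = 0.030) and Dhcr7 (0.014) passed. The same-numbered libraries did not deviate together (correlation -0.0053 over all genes tested and -0.20 over the cholesterol genes). This cannot show whether same-numbered cultures were paired, because a pairing need not leave a shared deviation. Without read counts, what depth limits could not be worked out, and genes near 1 TPM, such as Abca1 with doxycycline, depend most on the pseudocount (log2 fold change -4.01 to -2.29 over all alternatives).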

Other observations

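Families of lipid carriers, grouped by symbol after values were seen, held members that changed in opposite directions. Of 10 oxysterol-binding proteins tested, 2 rose and 3 fell: beside Osbpl2, Osbpl3 went from 20.6 TPM in both controls to 8.52 and 7.64 TPM (log2 fold change -1.25, SE 0.09). Of 9 tested StAR-related carriers, which hold a lipid in a START domain, 3 rose and 3 fell, with Stard5 the largest rise and Stard10 the largest fall, from 2.78 and 3.02 TPM to 1.38 and 0.824 TPM (log2 fold change -0.90, SE 0.17). Among 5 tested GRAMD genes 2 rose and 2 fell, and Gramd1a went from 71.6 and 67.4 TPM to 42.5 and 41.0 TPM (log2 fold change -0.72, SE 0.07) while Gramd1b rose. Of 7 tested ABCA transporters, Abca3 rose from 20.8 and 22.9 TPM to 28.6 and 28.2 TPM (log2 fold change 0.36, SE 0.08), and 5 fell, Abca1 by far the most. These calls use the limma adjusted p over all genes, under which 64.4% of genes were called.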
